A study of Mus musculus with 27 samples.

Results

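The 3 chains of the complement protein C1q, products of C1qa, C1qb and C1qc, were followed as 3 of 16024 genes in a table of RNA levels from mouse lung. They were selected on measured values: their rise in macrophages of tumour lung was already known, as were their changes in neutrophils, so both are described here with no test. C1q is the recognition molecule of the classical complement pathway. Its chains assemble into a bundle of collagen-like stalks with globular heads, which bind antibody complexes, dying cells and other ligands and switch on the proteases C1r and C1s. Unlike most complement proteins, which come from the liver, C1q is made chiefly by tissue macrophages and related myeloid cells, and it also marks apoptotic cells for uptake.

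RNA was sequenced from 27 libraries in 10 groups, all from C57BL/6 mice. Tumour lungs came from mice given HKP1 cells, a mouse lung cancer line, by the tail vein, and were taken at day 20 to 25, while wild-type (WT) lungs carried no tumour. Perfused lungs were dissociated and sorted by surface markers. Tumour macrophages were CD11c+CD11b+ (n = 3) and WT macrophages CD11c+CD11b- (n = 2), so tumour and gate changed together and cannot be told apart in that comparison. Monocytes were gated as CD11b+Ly6C+ cells (n = 2 from tumour lung and 2 from WT lung). The gate for neutrophils was CD11b+Ly6G+, with 3 libraries of each kind. Epithelial cells had the gate Epcam+CD11b-CD11c-, again with 3 of each kind, and total lung cells, left unsorted, gave 3 of each kind as well. The Epcam gate of tumour lung could hold HKP1 cells and host epithelium, which the labels do not separate. Whether 2 libraries of a group stem from different mice is not in the labels, so p-values reflect only how these samples vary, which may be technical.

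Levels are FPKM, fragments scaled to transcript length and library total, and carry no counts, so no counting interval can be given. From 8560 to 11420 genes reached 1 FPKM in each library. Relative depth, read from the spacing of low values, ran from 0.611 to 1.57 times that of tumour macrophages 1 and is rough. Itgam, which encodes CD11b, stood at 127 ± 13 FPKM in tumour macrophages and 1.30 ± 0.144 in WT macrophages (mean ± SD), as sorted. Some genes are listed at exactly 0 across a group where the cells normally carry them, such as Apoe in the 3 tumour macrophage libraries.

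The 3 genes lie side by side on the minus strand of chromosome 4 (GRCm38, GENCODE M21). C1qb spans chr4:136880129-136886187, C1qc chr4:136889804-136893065 and C1qa chr4:136895917-136898803, each with 3 exons. The gaps between them are 3616 and 2851 bases, and the whole cluster covers 18675 bases. Because the chains move together in these libraries, the stretch before 2 of their start sites is shown, from the RefSeq promoter table (GRCm38). The table has an entry for C1qb and for C1qc. The C1qb line covers the 250 bases before the start (chr4:136886201-136886450, minus strand), and the C1qc line the outermost 99 bases of its window (chr4:136893066-136893164, minus strand). Capitals mark a PU.1 core, GAGGAA or its reverse complement TTCCTC, and a MAF half-site, TGCTGA.
C1qb: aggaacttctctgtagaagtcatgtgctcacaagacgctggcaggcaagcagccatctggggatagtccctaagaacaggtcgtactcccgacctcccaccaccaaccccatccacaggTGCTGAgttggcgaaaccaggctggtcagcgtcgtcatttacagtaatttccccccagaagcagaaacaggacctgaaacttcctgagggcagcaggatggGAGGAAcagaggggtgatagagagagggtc
C1qc: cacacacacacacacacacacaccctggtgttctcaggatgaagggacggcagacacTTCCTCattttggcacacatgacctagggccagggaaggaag
In C1qb the MAF half-site lies at -131 to -126 and the PU.1 core at -30 to -25 from the start. In C1qc the PU.1 core lies on the other strand at -193 to -188 from the RefSeq start. That start lies inside the GENCODE span of C1qc given above, so the core lies closer to the GENCODE start. Only the bases before that span are shown. On either strand, GAGGAA occurs in 28.3% and TGCTGA in 19.5% of the 32817 RefSeq windows of this length. Neither window held an interferon response element (GAAANNGAA, 8.55% of windows) or a TATAAA (13.6%). A match describes letters only.

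C1q RNA was highest in tumour macrophages, and among the 3 preparations open to a test the chains passed as higher with tumour in total lung cells, and in neither monocytes nor epithelial cells. Unsorted lung cells include macrophages, so the pass in total lung cells is not independent of how the chains were chosen. Summed over the 3 chains, the level was 4188 ± 781 FPKM in tumour macrophages, followed by 1132 ± 317 in tumour total lung cells and 998 ± 471 in tumour monocytes. WT monocytes held 199 ± 145 and WT total lung cells 117 ± 27.5 FPKM. Tumour neutrophils stood at 69.1 ± 17.8 FPKM. The 4 lowest groups were WT macrophages (14.2 ± 15.1), WT neutrophils (10.1 ± 7.83), tumour epithelial cells (8.05 ± 4.74) and WT epithelial cells (5.88 ± 6.34).

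Not all neighbours in this order were distinct. Tumour macrophages stood 3.70 times above tumour total lung cells with no overlap between libraries. Tumour total lung cells and tumour monocytes overlapped, and tumour monocytes stood 5.0 times above WT monocytes without overlap. WT monocytes and WT total lung cells overlapped, WT total lung cells and tumour neutrophils did not, and neither did tumour neutrophils and WT macrophages. Among the 4 lowest groups each overlapped the next. The single chains followed the same order, except that C1qb was higher in tumour epithelial cells than in WT neutrophils.

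**Figure D1:**
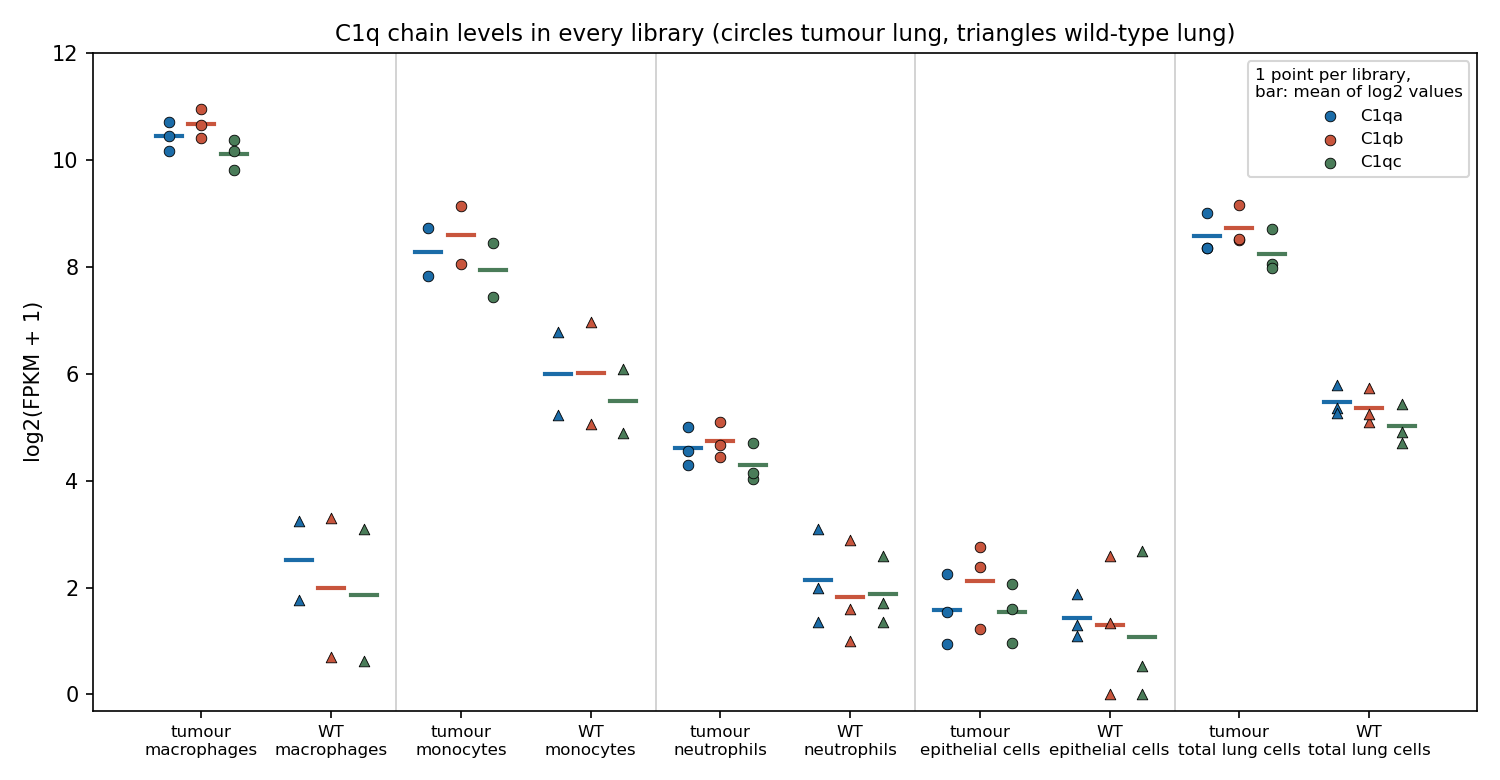
Level of each C1q chain in every library as log2(FPKM + 1), by group, with 1 point per library (circles tumour, triangles WT) and bars at the group mean of the log2 values. Tumour macrophage libraries lie at the top, from 899 FPKM of C1qc to 1985 FPKM of C1qb, and the epithelial groups overlap near the bottom.

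In macrophages, C1qa, the A chain, was at 1402, 1153 and 1671 FPKM in the tumour libraries and at 2.41 and 8.50 in the WT libraries. C1qb, the B chain, was at 1608, 1368 and 1985 FPKM against 0.631 and 8.82. C1qc, the C chain, was at 1151, 899 and 1326 FPKM against 0.546 and 7.57. All tumour libraries lay far above both WT libraries, and in relative terms the WT libraries differed more from each other than the tumour libraries did. By mean FPKM in tumour macrophages, C1qb ranked 24th of 16024 genes, C1qa 31st and C1qc 54th. In WT macrophages the ranks were 7338, 6974 and 7659. The ratios of means were 258 for C1qa, 350.0 for C1qb and 277 for C1qc, and the log2 changes of FPKM + 1 were 7.94, 8.67 and 8.26. Leaving out 1 library at a time moved the C1qb change between 7.38 and 9.97. Of 10119 genes tested there, 20.3% passed as higher in tumour, and in 32.4% every tumour library lay above every WT library. These values chose the members, so nothing is read from them.

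Most of the other macrophage markers moved with C1q in that comparison. Of 18 of the 19 listed macrophage markers tested, 14 were higher in tumour, against 20.3% of all genes. The 3 that were lower, against 17.7%, were Apoe, Mrc1 and Lyve1, of which Apoe fell through its listing at 0. Their summed level was 4551 to 5876 FPKM in tumour and 1503 to 1593 in WT libraries. Of 9 alveolar macrophage markers, 7 were lower and 1 higher, with sums of 657 to 830 FPKM against 2078 to 2225. Set against a general macrophage gene of the same library, the C1q sum was 14.3 ± 0.592 times the FPKM of Csf1r, the receptor for the macrophage growth factor, in tumour and 0.210 ± 0.214 times in WT macrophages. Csf1r and Cd68 were picked for such ratios after their values were seen.

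In monocytes the chains were higher in both tumour libraries than in both WT libraries, but no gene passed the test. C1qa was at 423 and 228 FPKM in tumour and 36.3 and 109 in WT libraries. C1qb was at 562 and 265 against 32.3 and 125 FPKM, and C1qc at 346 and 172 against 28.5 and 67.4. Tumour monocytes 4 was the highest library for every chain, and WT monocytes 3 the lowest. The log2 changes were 2.28 for C1qa (95% interval 0.90 to 3.66, limma adjusted p = 0.194), 2.58 for C1qb (0.91 to 4.25, adjusted p = 0.204) and 2.44 for C1qc (1.22 to 3.67, adjusted p = 0.182). Groups without overlap, tumour above, held for 23.6% of 10366 genes there, so the chains' separation is common in this comparison. By limma 0% of genes passed as higher, the lowest adjusted p over all genes being 0.0911. Before adjustment, a p under 0.05 was reached by 744 genes that were higher and by 815 that were lower. The count depended on the fit: with all 10 groups fitted together, 1152 genes passed and the adjusted p was 0.0104 for C1qa, 0.0391 for C1qb and 0.0315 for C1qc. Without tumour monocytes 5, 310 genes passed, C1qc among them (log2 change 2.95, adjusted p = 0.0473). Macrophage markers summed to 3326 and 5997 FPKM in tumour and 2108 and 2134 in WT monocytes, and 0 of 19 passed. Epithelial markers summed to 109 and 144 FPKM in tumour and 667 and 2178 in WT monocytes. For endothelial markers the sums were 135 and 356 against 775 and 1190 FPKM, and for neutrophil markers 548 and 698 against 356 and 3221. The part of all these markers in the C1q values was not tested. The C1q sum per Csf1r was 2.41 and 4.52 in tumour and 0.322 and 1.23 in WT libraries, again without overlap.

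In neutrophils C1q was low but higher in each tumour library than in each WT library. C1qa was at 30.9, 18.5 and 22.5 FPKM in tumour and 1.56, 2.98 and 7.54 in WT libraries. C1qb was at 33.0, 20.8 and 24.4 FPKM against 1.01, 2.03 and 6.40, and C1qc at 25.1, 15.4 and 16.6 against 1.57, 2.26 and 5.05. The lowest tumour value of each chain was over the highest WT value, which was that of WT neutrophils 7. Ratios of means were 5.96, 8.29 and 6.44 for C1qa, C1qb and C1qc, and log2 changes 2.47, 2.90 and 2.41. Of 9349 genes, 33.3% passed as higher and 25.8% as lower, and 38.3% had every tumour library above every WT library. The median change of all genes was 0.11 on the log2 scale. The changes were known when the chains were chosen and nothing is read from the counts.

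Some macrophage genes moved with C1q in neutrophils and others fell. Of 15 macrophage markers tested, 8 were higher in tumour, against 33.3% of all genes. The 3 that were lower, against 25.8%, were Cd14, Lyve1 and Gas6. None of the 19 was listed at 0 in every library of either group. The summed level overlapped, at 3432 to 4605 FPKM in tumour and 4371 to 5481 in WT libraries, most of it Cd14, which neutrophils carried at 3037 ± 670 and 4480 ± 595 FPKM. Csf1r was at 80.2 ± 14.8 FPKM in tumour and 61.0 ± 5.19 in WT neutrophils, Ms4a7, a macrophage membrane protein, at 2.5 ± 0.644 and 0.525 ± 0.224, and Trem2, a lipid receptor of macrophages, at 5.91 ± 0.898 and 1.86 ± 0.0925. The C1q sum per Csf1r was 0.855 ± 0.0608 in tumour and 0.161 ± 0.114 in WT neutrophils. The part of macrophage RNA in these libraries was not tested.

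In epithelial cells C1q was near the bottom of the range in both groups. C1qa was at 1.93, 0.931 and 3.78 FPKM in tumour and 1.45, 2.68 and 1.14 in WT libraries. C1qb was at 4.25, 1.33 and 5.73 FPKM against 1.52 and 5.01, and C1qc at 2.04, 0.962 and 3.19 against 0.440 and 5.39, both being listed at 0 in WT epithelial cells 10. The groups overlapped for every chain. The log2 changes were 0.16 for C1qa (95% interval -0.72 to 1.05, limma adjusted p = 0.768), 0.81 for C1qb (-0.78 to 2.41, adjusted p = 0.396) and 0.48 for C1qc (-1.12 to 2.08, adjusted p = 0.621). The intervals for C1qb and C1qc still hold changes of over 2 on the log2 scale. Of 11823 genes, 14.9% passed as higher and 8.89% as lower.

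All 3 chains rose in total lung cells. C1qa was at 516, 328 and 327 FPKM in tumour and 40.0, 54.1 and 37.7 in WT libraries. C1qb was at 566, 362 and 366 FPKM against 33.0, 52.4 and 37.1, and C1qc at 416, 264 and 251 against 29.2, 42.1 and 25.0. Every tumour library lay above every WT library, tumour total lung cells 12 being the highest for each chain. The log2 changes were 3.11 for C1qa (SE 0.21, 95% interval 2.61 to 3.61), 3.36 for C1qb (SE 0.23, 2.83 to 3.89) and 3.23 for C1qc (SE 0.25, 2.65 to 3.80), and the ratios of means 8.89, 10.5 and 9.66. The limma adjusted p-values were 0.000125, 0.000111 and 0.000181. All 3 of 3 chains passed as higher, against 22.1% of 11747 genes, while 20.4% passed as lower and 28.2% had groups without overlap, tumour above. Leaving out any 1 library kept all 3 calls, with an adjusted p of at most 0.00166. The chains were chosen for their rise in tumour lung macrophages, which unsorted cells include, so these calls are not independent of that choice.

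Macrophage markers rose with C1q in total lung cells. Of 19, 15 were higher in tumour and 2, Lyve1 and Gas6, lower, against 22.1% and 20.4% of all genes. The sum was 4661 to 6381 FPKM in tumour against 783 to 1073 in WT libraries. In unsorted cells, a larger number of macrophages and more C1q RNA per macrophage cannot be told apart. Relative to Csf1r the C1q sum was 10.9 ± 1.12 in tumour and 5.41 ± 1.29 in WT libraries, without overlap. Relative to Cd68, a lysosomal protein of macrophages, it was 3.33 ± 1.35 and 2.27 ± 0.420, and the groups overlapped. The direction was the same with both markers, but the separation held with 1 of them.

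The tumour effect on C1q was compared between the 3 preparations open to a test. In the fit of all 10 groups, the C1qa change in epithelial cells less that in total lung cells was -2.94 on the log2 scale (SE 0.64, limma adjusted p = 0.00298), and for C1qc the difference was -2.75 (SE 0.83, adjusted p = 0.0251). For C1qb the same difference was -2.55 (SE 0.91, adjusted p = 0.0573), which missed the threshold. The C1qa change was 2.12 higher in monocytes than in epithelial cells (SE 0.71, adjusted p = 0.0439), while C1qb (1.77, adjusted p = 0.248) and C1qc (1.96, adjusted p = 0.150) missed it. The C1qa pass rests on a spread pooled over all 10 groups. In the fit of monocytes alone the C1qa change did not pass (limma adjusted p = 0.194). Between monocytes and total lung cells no chain passed, the adjusted p-values running from 0.529 to 0.698, with an interval for C1qa of -2.30 to 0.65. These differences were computed at a pseudocount of 1 only, which shrinks changes at the low epithelial levels. At 0.1 the epithelial changes were 0.20 for C1qa, 1.82 for C1qb and 1.55 for C1qc. Those in total lung cells were then 3.13, 3.39 and 3.26.

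The chains rose and fell together, while their shares of the sum varied between libraries. Over 27 libraries the log2 levels of pairs of chains correlated at r = 0.993 to 0.997. That is a description, since libraries of a group share preparation and tumour state. Within a library the chains share its depth, and their genes are neighbours. C1qb was above C1qa and C1qa above C1qc in 15 of 27 libraries, and in 14 of the 20 with at least 10 FPKM summed. In those 20 the share of C1qb ran from 32.3% to 45.1% (median 38.1%), of C1qa from 20.5% to 39.7% (median 34.4%) and of C1qc from 22.4% to 41.2% (median 27.1%). In tumour macrophages the shares were 33.7% ± 0.0931, 39.5% ± 0.733 and 26.9% ± 0.718 for C1qa, C1qb and C1qc. FPKM are per length, so the chains can be set side by side on this scale, though fragments per transcript may still differ in how well they map.

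Some WT libraries differed from this order. C1qa was above C1qb in all 3 WT total lung libraries and all 3 WT neutrophil libraries, while C1qb was above C1qa in every tumour library of macrophages, monocytes, neutrophils and total lung cells. In total lung cells C1qb took 38.2% ± 0.520 of the sum in tumour and 34.9% ± 2.46 in WT libraries, and C1qa 34.5% ± 0.168 and 37.8% ± 1.33. In neutrophils C1qb took 37.8% ± 0.661 in tumour and 28.7% ± 4.70 in WT libraries. In total lung cells the groups did not overlap for either share, and each reached an exact two-sided permutation p of 0.1, the lowest that 3 against 3 libraries allow (adjusted p = 0.25 over 15 share comparisons). The C1qc share there was 27.3% in both groups (exact p = 1.0). Shares in macrophages and neutrophils are a description, since those comparisons were known when the chains were chosen. Libraries of low C1q level have the least certain shares.

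**Figure D2:**
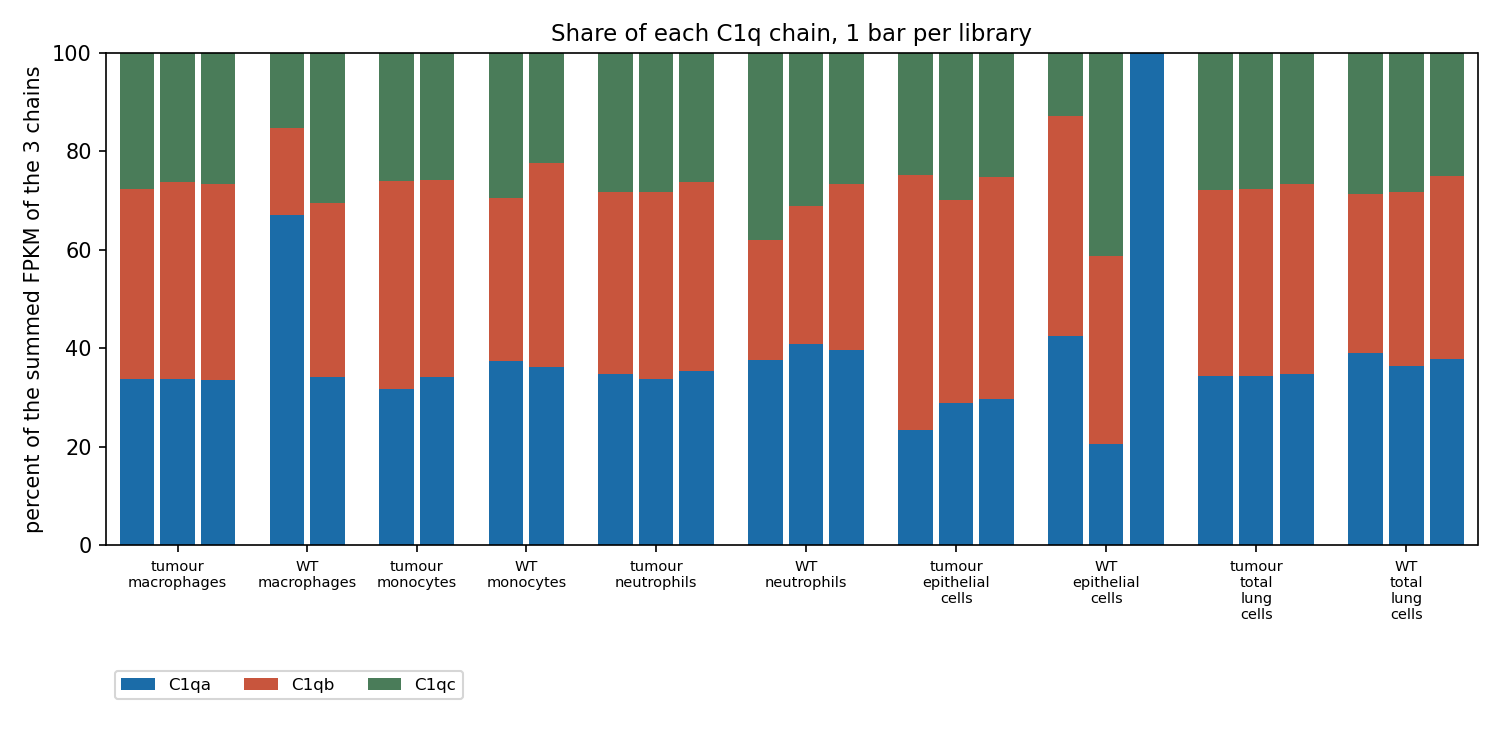
Percent of the summed FPKM of C1qa, C1qb and C1qc in each library, 1 stacked bar per library, by group. Bars are alike in tumour macrophages, monocytes, neutrophils and total lung cells, and uneven in WT macrophages and WT epithelial cells, where C1qb and C1qc of 1 library are listed at 0.

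The partners that C1q acts through were next described from lists. Of 10 listed genes of the classical pathway 7 are in the table: C1rb, the protease gene C1s, the targets C2, C3 and C4b, Hc (C5), and Serping1, the inhibitor of C1r and C1s. In macrophages 3 of 5 tested rose and 2 fell, against 20.3% and 17.7% of all genes, with a list median of 0.89 on the log2 scale against 0.00 over all genes. C3, on which the complement pathways converge, was at 57.2, 59.3 and 71.8 FPKM in tumour and 31.0 and 33.4 in WT macrophages (log2 change 0.94, SE 0.12, limma adjusted p = 0.00152). C2, which joins C4b in the C3 convertase, rose from 0.414 ± 0.197 to 3.37 ± 0.639 FPKM (log2 change 1.62, adjusted p = 0.00091). C4b rose from 1.15 ± 0.283 to 3.03 ± 0.831 FPKM (adjusted p = 0.0192), Hc fell from 2.02 ± 0.591 to 0.755 ± 0.380 (adjusted p = 0.0358) and Serping1 fell from 6.55 ± 0.704 to 2.42 ± 1.39 (adjusted p = 0.0389). These last 3 calls were lost without WT macrophages 1, WT macrophages 2 or, for C4b and Hc, a tumour library, at adjusted p-values up to 0.139, 0.266 and 0.183. C1s stayed at or under 1.38 FPKM in every macrophage library.

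In total lung cells 5 of 6 pathway genes tested passed as lower and 0 as higher, against 20.4% and 22.1% of all genes, while the 3 C1q chains rose. C1s was at 9.77, 12 and 5.12 FPKM in tumour and 51.1, 56.1 and 22.2 in WT libraries (log2 change -2.11, SE 0.39, limma adjusted p = 0.00467). C4b was at 12.8, 11.7 and 8.69 FPKM against 61.6, 44.2 and 26.6 (log2 change -1.84, SE 0.29, adjusted p = 0.00228). Serping1 was at 20.9, 26.2 and 11.2 FPKM against 238, 284 and 122 (log2 change -3.39, SE 0.38, adjusted p = 0.000643). Tumour and WT libraries did not overlap for any of these 3. C2 fell from 9.43 ± 3.73 to 3.33 ± 0.879 FPKM (adjusted p = 0.0137) and Hc from 85.5 ± 31.8 to 13.3 ± 15 (adjusted p = 0.00896), while C3 overlapped (136 ± 60.7 WT, 98.5 ± 9.92 tumour, adjusted p = 0.375). The list median was -1.98 against -0.01 over all genes. The C2 call ended with no filter on low values (adjusted p = 0.054). Markers of other cells moved with these falls: 12 of 12 endothelial markers and 7 of 8 fibroblast markers were lower in tumour. Their sums were 96.4 to 217 and 94.6 to 272 FPKM in tumour against 520 to 1096 and 443 to 1272 in WT libraries. Their part in the falls was not tested.

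In neutrophils C3 rose from 93.6 ± 2.49 to 174 ± 26.9 FPKM (log2 change 0.88, limma adjusted p = 0.000543). C1s (3.25 ± 1.64 to 0.70 ± 0.205, adjusted p = 0.00216), Hc and Serping1 fell. So 1 of 5 was higher and 3 lower, against 33.3% and 25.8% of all genes. Endothelial markers were lower there too, 12 of 12, with sums of 16.0 to 30.0 FPKM in tumour and 92.2 to 113 in WT libraries. Of 13 epithelial markers 7 were lower and 4 higher, with sums of 71.4 to 125 FPKM in tumour and 719 to 3301 in WT libraries. Fibroblast markers were lower in 6 of 7, and the part of all these markers was not tested. In epithelial cells 0 of 6 pathway genes passed in either direction, against 14.9% of all genes as higher and 8.89% as lower. In monocytes 0 of 5 passed, where no gene did. C3 was at 140 ± 34.4 FPKM in tumour and 92.1 ± 22.4 in WT epithelial cells (adjusted p = 0.109), and at 97.4 ± 6.74 and 124 ± 10.7 in monocytes (adjusted p = 0.420).

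**Figure D3:**
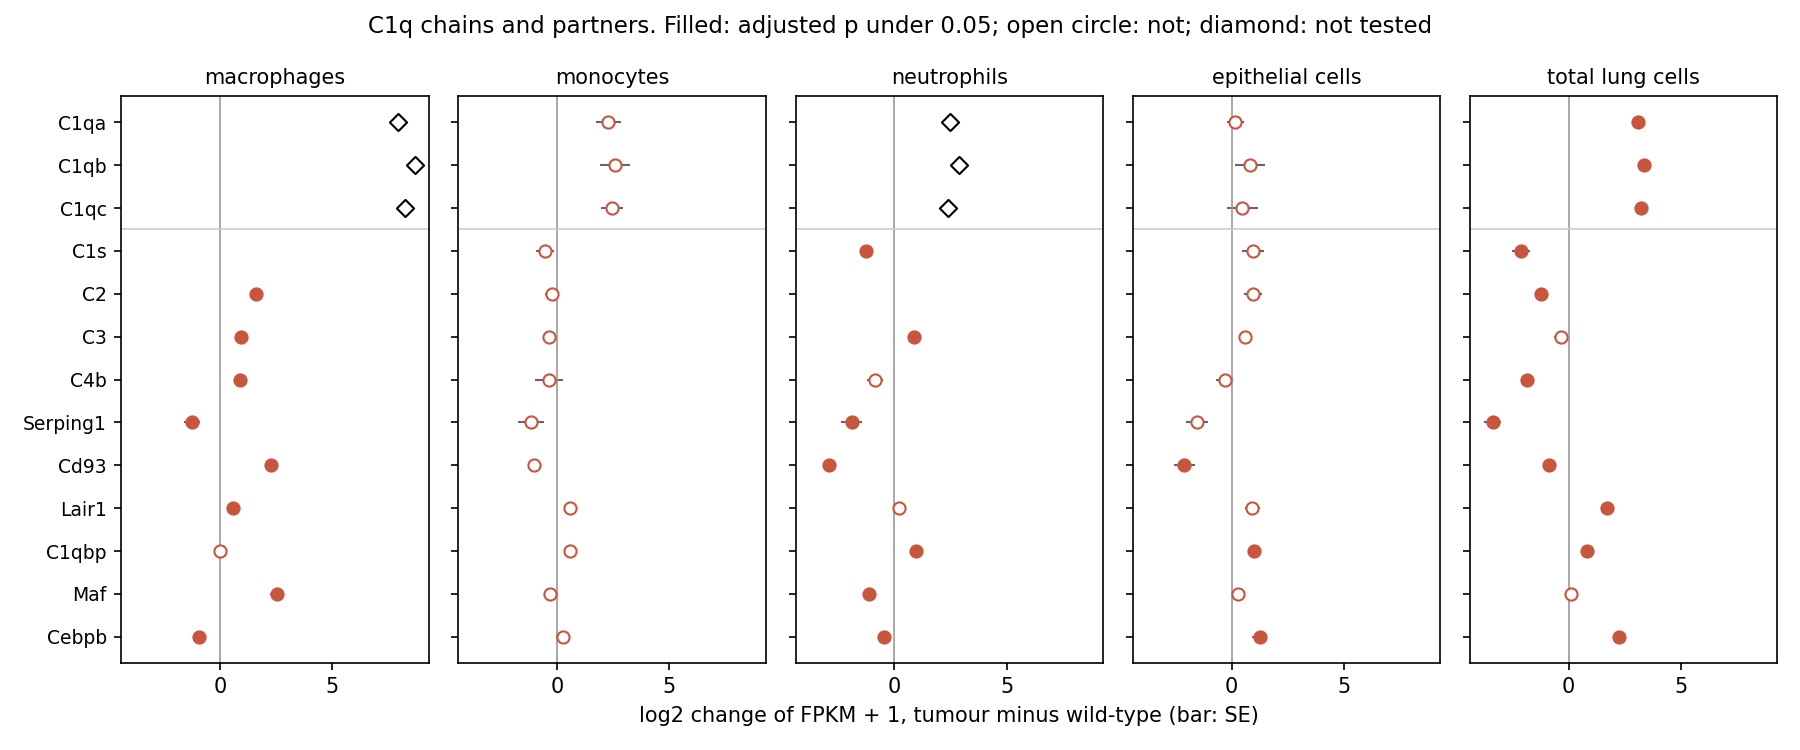
Log2 change of FPKM + 1, tumour minus WT, of the C1q chains (above the line) and of pathway partners, receptors and factors in each preparation, with bars for SE. Filled circles passed an adjusted p of 0.05, open circles did not, diamonds are chain changes with no test, and genes under the filter have no symbol. The chains lie right of 0 in total lung cells, where C1s, C2, C4b and Serping1 lie left of it.

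Of 14 listed C1q receptors and binding partners, 13 are in the table, and calls on them went in both directions. In macrophages 2 of 8 tested rose and 1 fell, against 20.3% and 17.7% of all genes. Cd93, a surface protein first described as a C1q receptor and carried by endothelial and myeloid cells, was at 36.0, 31.5 and 45.9 FPKM in tumour and 7.36 and 6.34 in WT macrophages (log2 change 2.29, SE 0.17, limma adjusted p = 0.00012). Lair1, an inhibitory collagen receptor that binds the C1q stalk, rose from 18.7 ± 1.04 to 28.5 ± 3.56 FPKM (adjusted p = 0.0122), a call lost without WT macrophages 1 (adjusted p = 0.103) or WT macrophages 2 (adjusted p = 0.0618). Ager, a pattern receptor abundant in alveolar type I cells, fell from 16.5 ± 2.29 to 6.80 ± 0.405 (adjusted p = 0.00073). With all 10 groups fitted together Ager missed the threshold in macrophages (adjusted p = 0.0515). Of 12 epithelial markers tested, Ager among them, 8 were lower and 2 higher in tumour macrophages, with sums of 136 to 769 FPKM in tumour and 1565 to 1709 in WT libraries. Endothelial markers were lower as well, 10 of 12, and the part of either was not tested. Calr and Lrp1, which act together in C1q-directed uptake, overlapped: Calr at 468 ± 19.2 and 486 ± 14, Lrp1 at 120 ± 22.5 and 124 ± 6.90 FPKM in tumour and WT libraries.

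Cd93 went the other way elsewhere. In neutrophils it was at 9.45, 6.50 and 9.11 FPKM in tumour and 68.2, 79.1 and 59.3 in WT libraries (log2 change -2.91, SE 0.16, limma adjusted p = 5.62e-06). In total lung cells it fell from 30.2 ± 12.8 to 15.3 ± 1.37 FPKM (adjusted p = 0.0283), a call lost without tumour total lung cells 12, 13 or 14 (adjusted p 0.0635, 0.0763 and 0.0596). In neutrophils 4 of 8 receptors rose (Calr, Lrp1, C1qbp and Itgb1) and 3 fell (Cd93, Scarf1 and Ager), against 33.3% and 25.8% of all genes. Lrp1, an endocytic receptor, was at 24.4, 21.7 and 21.4 FPKM in tumour and 7.73, 8.47 and 8.07 in WT neutrophils (log2 change 1.37, adjusted p = 2.84e-05). C1qbp, a mostly mitochondrial protein that binds the globular heads, rose from 29.8 ± 1.45 to 53.4 ± 2.10 FPKM in total lung cells (log2 change 0.82, adjusted p = 0.0006), where Lair1 rose from 3.56 ± 0.613 to 14 ± 3.41 (log2 change 1.70, adjusted p = 0.000677). There 2 of 9 rose, near the 22.1% of all genes, and 3 fell (Cd93, Scarf1 and Ager), against 20.4%. Endothelial markers were lower in neutrophils and in total lung cells, 12 of 12 in each. Of 13 epithelial markers, Ager among them, 7 were lower and 4 higher in neutrophils, and 6 lower and 5 higher in total lung cells. The part of these markers in the falls of Cd93, Scarf1 and Ager was not tested.

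In epithelial cells 4 of 9 receptors rose and 2 fell, against 14.9% and 8.89% of all genes. Itga2, a collagen-binding integrin subunit that also binds C1q, rose from 0.713 ± 0.181 to 20.0 ± 9.25 FPKM (log2 change 3.51, SE 0.35, limma adjusted p = 0.00327) and held without any 1 library (adjusted p up to 0.0282). Lrp1 rose from 3.74 ± 1.79 to 19.0 ± 7.44 FPKM, Calr from 233 ± 5.03 to 390.5 ± 67.8 and C1qbp from 32.2 ± 2.68 to 66.3 ± 17.7, at adjusted p-values of 0.0138, 0.0206 and 0.0207. Cd93 and Scarf1 fell (adjusted p = 0.0228 and 0.0400). Endothelial markers were lower with them, 12 of 12, with sums of 28.4 to 113 FPKM in tumour and 288 to 516 in WT epithelial cells, and their part was not tested. Of the 11 calls on genes of the 4 pathway lists in epithelial cells, 10 ended when some 1 library was left out. In monocytes 0 of 9 passed.

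Proteins that share the globular head of C1q were mostly low. Of 26 listed, 25 are in the table and 4 to 14 passed the filter in each preparation. Total lung cells had 7 of 14 lower and 1 higher, against 20.4% and 22.1% of all genes, beside the lower endothelial (12 of 12) and fibroblast (7 of 8) markers. C1qtnf2, a secreted relative, fell from 6.37 ± 0.702 to 0.837 ± 0.308 FPKM (log2 change -2.01, limma adjusted p = 0.000209), C1qtnf7 from 10.2 ± 2.88 to 1.27 ± 0.952 (log2 change -2.38, adjusted p = 0.00188) and Mmrn2, an endothelial matrix protein, from 7.14 ± 1.77 to 0.628 ± 0.304 (log2 change -2.32, adjusted p = 0.000279). Emilin2, an elastin-associated protein, rose there from 31.0 ± 8.70 to 60.2 ± 13.1 FPKM (adjusted p = 0.0119, log2 change 0.95). In neutrophils 5 of 7 fell, Emilin2 from 376 ± 52.3 to 169 ± 52.2 FPKM (log2 change -1.19, adjusted p = 0.00199), and 1, C1qtnf9, rose, against 25.8% and 33.3% of all genes. There too endothelial (12 of 12) and fibroblast (6 of 7) markers were lower, and their part was not tested in either preparation. The C1qtnf9 call ended without tumour neutrophils 8 (adjusted p = 0.0525) or WT neutrophils 5 (adjusted p = 0.0541). In macrophages Emilin2 rose and Emilin1 fell of 4 tested, against 20.3% and 17.7% of all genes. The Emilin2 call ended without WT macrophages 1 (adjusted p = 0.0626), and the Emilin1 call without tumour macrophages 1 (adjusted p = 0.0526) or WT macrophages 2 (adjusted p = 0.134). In epithelial cells 3 of 11 fell, against 8.89% of all genes. In monocytes 0 of 9 passed, where no gene did.

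Factors tied to C1q transcription were next described from a list, of which 6 genes are given. In macrophages Maf, a transcription factor active in macrophages, rose from 0.70 ± 0.389 to 9.35 ± 3.86 FPKM (log2 change 2.56, limma adjusted p = 0.00107), and the call held without any 1 library. Ppard, a lipid-sensing nuclear receptor, passed as higher, and Nr1h3, the oxysterol receptor, its partner Rxra and Cebpb as lower. These 4 calls each ended without WT macrophages 1 (adjusted p from 0.0515 for Cebpb to 0.196 for Ppard). Irf8, a myeloid lineage factor, had a mean of 78.9 ± 4.60 FPKM in tumour macrophages against 92.5 ± 15.5 in WT macrophages, and the groups overlapped (adjusted p = 0.221).

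Cebpb, an inflammatory and myeloid factor, rose in total lung cells from 54.0 ± 5.65 to 256 ± 20.5 FPKM (log2 change 2.23, limma adjusted p = 4.86e-05). Neutrophil markers were higher there, 9 of 13, with sums of 4549 to 11086 FPKM in tumour and 2206 to 3238 in WT libraries. So were 15 of 19 macrophage markers. Both counts stand against 22.1% of all genes, and the part of these markers was not tested. Cebpb passed as lower in neutrophils (log2 change -0.45, adjusted p = 0.0179), which ended without tumour neutrophils 8 or WT neutrophils 6 (adjusted p = 0.0602 and 0.0659). With quantile normalization that change was only -0.048 (limma adjusted p = 0.733), and the call also ended with the replicate block (adjusted p = 0.0742). Cebpb passed as higher in epithelial cells (log2 change 1.25, adjusted p = 0.0372), which ended without tumour epithelial cells 9 or 11 or WT epithelial cells 8 or 10 (adjusted p from 0.0976 to 0.127). In total lung cells Ppard rose from 9.06 ± 0.654 to 16.3 ± 2.24 FPKM (adjusted p = 0.00265), while Maf had means of 10.2 ± 2.49 with tumour and 9.18 ± 0.564 without, and the groups overlapped (adjusted p = 0.640). In neutrophils Maf fell by 1.11 on the log2 scale (adjusted p = 0.000479) and Irf8 fell by 1.48 (adjusted p = 0.00258), both without overlap. None of the 6 passed in monocytes.

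Among the 10 genes whose pattern was most like C1q over the 27 libraries were C3ar1, Ccl12, Ms4a7, Gbp5, Pf4, Mgl2, Slc29a3, Myo5a and Ifnb1. Likeness was the Pearson r of log2(FPKM + 1) with the mean of the 3 chains, among 10171 genes with a group mean of at least 5 FPKM. It ran from 0.955 for C3ar1, the receptor of the complement fragment C3a, to 0.906 for Ifnb1, interferon beta. Of these 10 genes, 9 stayed among the 10 highest over group means, 9 at a pseudocount of 0.1 and 8 by Spearman's rho. The libraries share preparations and tumour state, and the genes were chosen by this likeness, so their changes have no test here.

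C3ar1 was at 51.1, 49.1 and 64.5 FPKM in tumour macrophages, at 0.315 and 0.618 in WT macrophages, and at 12 ± 3.18 and 2.01 ± 1.10 in tumour and WT total lung cells. Ms4a7 (r = 0.942) had 174 ± 28.7 FPKM in tumour and 6.03 ± 0.324 in WT macrophages and 36.6 ± 17.2 and 4.52 ± 1.68 in tumour and WT total lung cells. Pf4, a chemokine of platelets and macrophages (r = 0.928), was at 73.5 ± 5.43 and 2.82 ± 1.71 FPKM in macrophages. Ifnb1 was at 269.5, 259 and 274 FPKM in tumour macrophages and is listed at 0 in both WT macrophage libraries. Tumour macrophages had the highest mean of C3ar1, Ms4a7, Pf4 and Ifnb1, as of C1q.

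**Figure D4:**
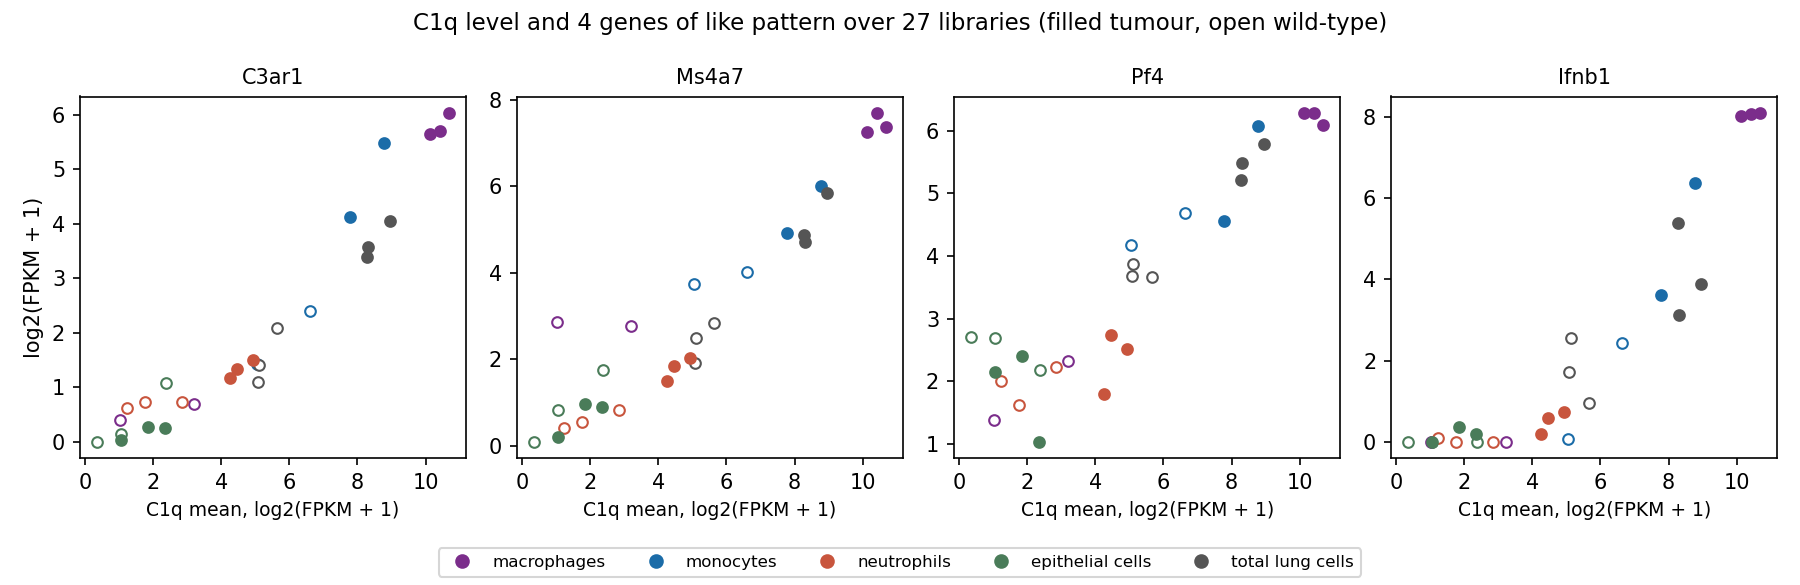
Levels of C3ar1, Ms4a7, Pf4 and Ifnb1 against the mean level of the C1q chains in 27 libraries, both as log2(FPKM + 1), filled for tumour and open for WT, coloured by preparation. C3ar1 follows C1q most closely (r = 0.955), and the tumour macrophage libraries lie at the top right of each panel.

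The chromosomal neighbours did not share the macrophage pattern. Ephb2, an ephrin receptor gene 44140 bases away on one side, averaged 0.126 FPKM in tumour and 0.122 in WT macrophages, and Epha8, another ephrin receptor gene 30615 bases away on the other side, averaged at most 0.0370 FPKM in any group. Zbtb40, a zinc finger gene 80928 bases away, had 2.32 ± 0.433 FPKM in tumour and 2.16 ± 0.00304 in WT macrophages (limma adjusted p = 0.80). Kdm1a, a histone demethylase gene 277405 bases away, was at 21.2 ± 1.81 and 20.2 ± 0.124 (adjusted p = 0.684). In total lung cells Kdm1a overlapped (adjusted p = 0.936), while Ephb2 fell from 1.04 ± 0.359 to 0.368 ± 0.0877 FPKM (adjusted p = 0.0430). In neutrophils Kdm1a rose from 8.03 ± 1.03 to 23.6 ± 1.48 FPKM (log2 change 1.45, adjusted p = 3.93e-05).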

How the data were processed

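RNA levels were analysed in 27 libraries of 10 groups, grouped by their cell type and source labels. Per the submitters' processing notes, the authors used CASAVA 1.8.2, TopHat2, Cufflinks and Cuffdiff with mm10 (GRCm38), and deposited FPKM for 16024 genes. The annotation is not given in the sources used here. All columns were matched to libraries by title. Fragment counts were not analysed here.

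Analyses used log2(FPKM + 1), which understates changes of low genes. A gene was tested if 2 or more libraries of the comparison held 1 FPKM or more. Tumour was set against WT within each preparation by limma 3.58.1 (trend, two-sided) in R 4.3.3, with Benjamini-Hochberg adjustment over all genes tested and a threshold of 0.05. Differences between preparations were contrasts in a fit of all 10 groups, adjusted over 12642 genes. The scripts were tested on simulated data. Chain shares were tested by exact permutation.

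The members and lists were chosen with earlier results of these data known. Of each pathway list, the text could name up to 6 called members and 3 others of highest mean, of marker lists up to 4, and the 10 genes most like C1q. Not all of these are written out. Some list genes are not reported here. Promoters came from RefSeq (GRCm38) and positions from GENCODE M21. Alternatives were pseudocounts of 0.1 and 5, no filter, a filter of 5 FPKM, scaling by quantiles or by the upper quartile, 1 fit over the 10 groups, a replicate block and each library left out.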

Additional observations from a re-analysis of the deposited data

Results flagged for a closer look

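Differences in the tumour effect between preparations that passed the interaction test in the fit of all 10 groups are given here (log2 scale, limma adjusted p). For the chains, the C1qa change was 2.12 higher in monocytes than in epithelial cells (adjusted p = 0.0439), and the differences between epithelial and total lung cells were -2.94 for C1qa (adjusted p = 0.00298) and -2.75 for C1qc (adjusted p = 0.0251). They were computed at a pseudocount of 1 only. In the fit of monocytes alone the C1qa change did not pass (limma adjusted p = 0.194). The other genes here are partners and factors called in opposite directions in 2 preparations. Those calls come from these same libraries, so a difference that passes was nearly fixed in advance. Their adjusted p-values are description only. The change in macrophages less that in total lung cells was 2.84 for C2 (adjusted p = 7.43e-05), 2.73 for C4b (adjusted p = 0.00296), -3.18 for Cebpb (adjusted p = 1.21e-06) -1.26 for Nr1h3 (adjusted p = 0.00146) and 3.15 for Cd93 (adjusted p = 4.61e-05). The change in macrophages less that in neutrophils was 5.2 for Cd93 (adjusted p = 4.82e-08) and 3.67 for Maf (adjusted p = 5.51e-08). Macrophages less epithelial cells gave 4.39 for Cd93 (adjusted p = 5.33e-07) and -2.20 for Cebpb (adjusted p = 6.98e-05). For Cebpb, neutrophils less epithelial cells gave -1.71 (adjusted p = 0.000533) and neutrophils less total lung cells -2.68 (adjusted p = 6.88e-06). Several of the calls within a preparation are fragile. With all 10 groups fitted together C4b missed the threshold in macrophages (adjusted p = 0.164) and Cebpb missed it in neutrophils (adjusted p = 0.116). With quantile normalization the Cebpb change in neutrophils was only -0.048 (limma adjusted p = 0.733). The Nr1h3 call ended in macrophages without WT macrophages 1 (adjusted p = 0.0645) and in total lung cells without tumour 12, tumour 14, WT 12 or WT 13 (adjusted p from 0.0995 to 0.114) or with no filter (adjusted p = 0.0988). The Cd93 calls in epithelial and total lung cells and the Cebpb calls in macrophages, neutrophils and epithelial cells also each ended without some 1 library. The macrophage changes include the difference in the CD11b gate, and the part of the gate was not tested.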

How the results depend on the processing

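The C1q changes in macrophages, neutrophils and total lung cells kept their direction under every alternative run. For C1qc in neutrophils the change was 1.60 at a pseudocount of 5, which shrinks low values by construction. In monocytes the calls depended on the fit: with all 10 groups, 1152 genes passed, and the chain changes of 2.28, 2.58 and 2.44 had adjusted p-values of 0.0104, 0.0391 and 0.0315. Leaving out 1 library gave 0 to 310 monocyte calls and a C1qc change from 1.84 to 3.05, passing at 2.95 (adjusted p = 0.0473). In epithelial cells the sign of C1qa turned with quantile normalization (-0.094), with the replicate block (-0.24), without tumour library 11 (-0.17) and without WT library 10 (-0.00049). C1qc turned with the block (-0.0497) and without WT library 10 (-0.0534). At a pseudocount of 0.1 the epithelial changes were 0.20 for C1qa, 1.82 for C1qb and 1.55 for C1qc. With 1 library left out, C1qa reached up to 0.48 and C1qc up to 1.28. The cause was not tested.

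Counts of called genes moved too. In macrophages they ran from 1778 to 4520 with 1 library left out, against 3838. In epithelial cells they ran from 490 to 4215 with 1 library left out, and were 1314 with no filter and 5343 with all 10 groups, against 2816. With the replicate block they were 3564 for neutrophils (5524 without it), 397 for epithelial cells (2816) and 2423 for total lung cells (4993). Same-numbered libraries did not deviate together over all genes (r from -0.158 to 0.0743 over 9 pairs). An r over all genes in groups this small cannot exclude a pairing. Monocytes share too few numbers for a block. Of 964 alternative values for 72 calls on pathway genes, 827 kept the call, 137 lost it and 0 turned. Depth is known only in relative terms, which limits values near 0.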
